A study of Mus musculus with 196 samples.

Results

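The kallikrein, serpin B and Spink genes of mouse skin were taken by symbol: Klk followed by a digit or 1b, Serpinb, or Spink. Of 18820 genes measured by a probe set naming a single gene, 58 met this rule, each through 1 probe set. They were 12 kallikrein-related peptidases (Klk4 to Klk15), 9 glandular kallikreins of the Klk1b group, 24 serpin B genes (11 on chromosome 1 and 13 on chromosome 13) and 13 Spink genes. In 27 members the mean of at least 1 group lay above the median of all gene means (6.49 on the log2 scale), and in 31 members no group mean did.

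Skin of 100 untreated backcross mice aged 8 weeks was measured on expression arrays, with values on a log2 scale. Daughters of Mus spretus fathers and FVB/N mothers had been bred to FVB/N sires, so the mice of all groups differ from each other in genotype. Shaved dorsal skin made up 85 arrays outside anagen, when hair follicles grow (41 female, 44 male), and 14 arrays in anagen (8 female, 6 male). Tail skin made up 97 arrays (48 female, 49 male) and carries no hair cycle label. Of the mice, 82 gave tail and non-anagen dorsal skin and 14 gave tail and anagen dorsal skin. Dorsal arrays were in batches 1 and 2 and tail arrays in batches 3 and 4, so that tissue and batch cannot be told apart, and all anagen arrays were in batch 1.

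Kallikrein-related peptidases are secreted serine proteases. In the uppermost epidermis they cut the corneodesmosomes that hold dead keratinocytes together, so that these are shed. Spink proteins carry Kazal domains that block such proteases; LEKTI, the product of Spink5, restrains Klk5, Klk7 and Klk14, and its loss in people causes Netherton syndrome. Serpin B proteins lack a classical secretion signal, act mainly inside cells, and trap serine or cysteine proteases by a conformational change that destroys the protease.

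The labelled tissues carried keratinocyte transcripts in every group. The mean of the basal keratins Krt5 and Krt14 ranged from 11.31 to 12.24 in non-anagen back, from 11.64 to 12.31 in anagen back and from 11.93 to 12.5 in tail. The mean of 9 inner root sheath genes had medians of 4.93, 8.65 and 8.67 in these groups, and the mean of 6 T and NK cell genes had medians of 7.02, 6.96 and 4.93. The mean of 6 stressed-keratinocyte genes had medians of 6.98 in non-anagen back and 7.96 in tail, and its highest values were 8.15 and 11.37. Among upper-layer genes, Krt2 was higher in tail by 7.59 and Krt77 lower, with a difference of -6.01. In bulk skin, fewer cells of a type and less RNA per cell cannot be told apart.

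The serpin B genes of chromosome 1 lie in a single run, in the order Serpinb5, Serpinb12, Serpinb13, Serpinb3a, Serpinb3d, Serpinb3c, Serpinb11, Serpinb7, Serpinb2, Serpinb10 and Serpinb8. Their promoters are shown because most of these genes share a short motif and because the tail difference splits the run. RefSeq (GRCm38.p6) gave a promoter for 43 of the 58 members, and the 250 bases before each gene start were searched on both strands. The letters TGANTCA, a relaxed form of the AP-1 site that reads the same on both strands, were in 7 of the 10 chromosome 1 serpin B genes with a promoter. They were in 0 of 12 serpin B genes of chromosome 13 and 0 of 12 kallikrein-related peptidases, against 7.82% of 27025 genes in the promoter table. The windows below run 5′ to 3′ on the gene's strand, with the motif in capitals.
Serpinb5, chr1:106861020-106861056, plus strand: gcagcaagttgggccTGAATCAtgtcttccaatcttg
Serpinb12, chr1:106934389-106934425, plus strand: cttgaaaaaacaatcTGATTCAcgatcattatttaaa
Serpinb11, chr1:107362223-107362259, plus strand: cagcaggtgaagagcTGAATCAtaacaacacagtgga
Serpinb7, chr1:107422629-107422665, plus strand: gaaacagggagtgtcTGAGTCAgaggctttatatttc
Serpinb2, chr1:107511314-107511350, plus strand: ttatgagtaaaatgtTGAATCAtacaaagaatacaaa
Serpinb10, chr1:107528934-107528970, plus strand: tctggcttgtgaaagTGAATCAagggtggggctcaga
Serpinb8, chr1:107589968-107590004, plus strand: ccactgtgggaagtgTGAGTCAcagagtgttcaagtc
Serpinb11 held another copy farther from its start. Serpinb7 and Serpinb8 held the form TGAGTCA, and the other five held TGAATCA or TGATTCA. The letters were not found in Serpinb3a, Serpinb3c or Serpinb3d. These 3 genes held TATAAA, which was also in Serpinb12, Serpinb2 and Serpinb7, against 14.3% of all genes with a promoter. Serpinb3a and Serpinb3c, which lie on either side of Serpinb3d, were 94% identical over 216 aligned bases before the start, whereas Serpinb3a and Serpinb3d aligned over 26 bases only. Their last 120 bases before the start are printed to show this likeness, with TATAAA in capitals.
Serpinb3a, chr1:107052304-107052423, minus strand: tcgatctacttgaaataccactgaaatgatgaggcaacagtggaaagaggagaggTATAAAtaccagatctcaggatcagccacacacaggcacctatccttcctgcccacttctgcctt
Serpinb3c, chr1:107278372-107278491, minus strand: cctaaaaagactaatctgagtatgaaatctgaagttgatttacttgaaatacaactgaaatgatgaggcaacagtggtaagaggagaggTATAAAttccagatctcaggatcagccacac
A match is a description of the letters and does not show that a factor binds there. Array probes may not separate the near-identical Serpinb3 copies, or those of the Klk1b, Serpinb6 and Serpinb9 groups, so the values of single copies are uncertain.

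Tail skin differed from non-anagen dorsal skin most in Serpinb3d, Serpinb13 and Serpinb3a of the chromosome 1 serpin run. Spink12 and Klk13 rose by 2.69 and 2.51, within the range of the other rising genes of that run, and Serpinb6e had -2.34. The other kallikrein-related peptidases had smaller rises, not all of which held under other scalings. At an adjusted p under 0.05 (limma, Benjamini-Hochberg over all genes) and at least 2-fold, 13 members were higher in tail and 1 was lower, where 3.94% and 2.02% of all genes were called. At any size 24 were higher and 28 lower, against 43.7% and 43.4% of all genes. The median difference of the 58 members was -0.03, against -0.00 for all genes. It was -0.29 for the 31 members at or below the median level and -0.19 for all 8788 such genes. For the 27 members above that level in a group it was 0.69, and for all 10032 such genes 0.24. At any size 18 of these 27 members were higher and 6 lower, against 65% and 23.8% of such genes. The split by level uses the tail means too. Serpinb3d, for example, had means of 4.77, 4.87 and 10.78 in non-anagen back, anagen back and tail, and passed through tail alone. The upper set is thus tilted toward tail rises, among members and among all genes, and its values are not separate support.

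**Figure D1:**
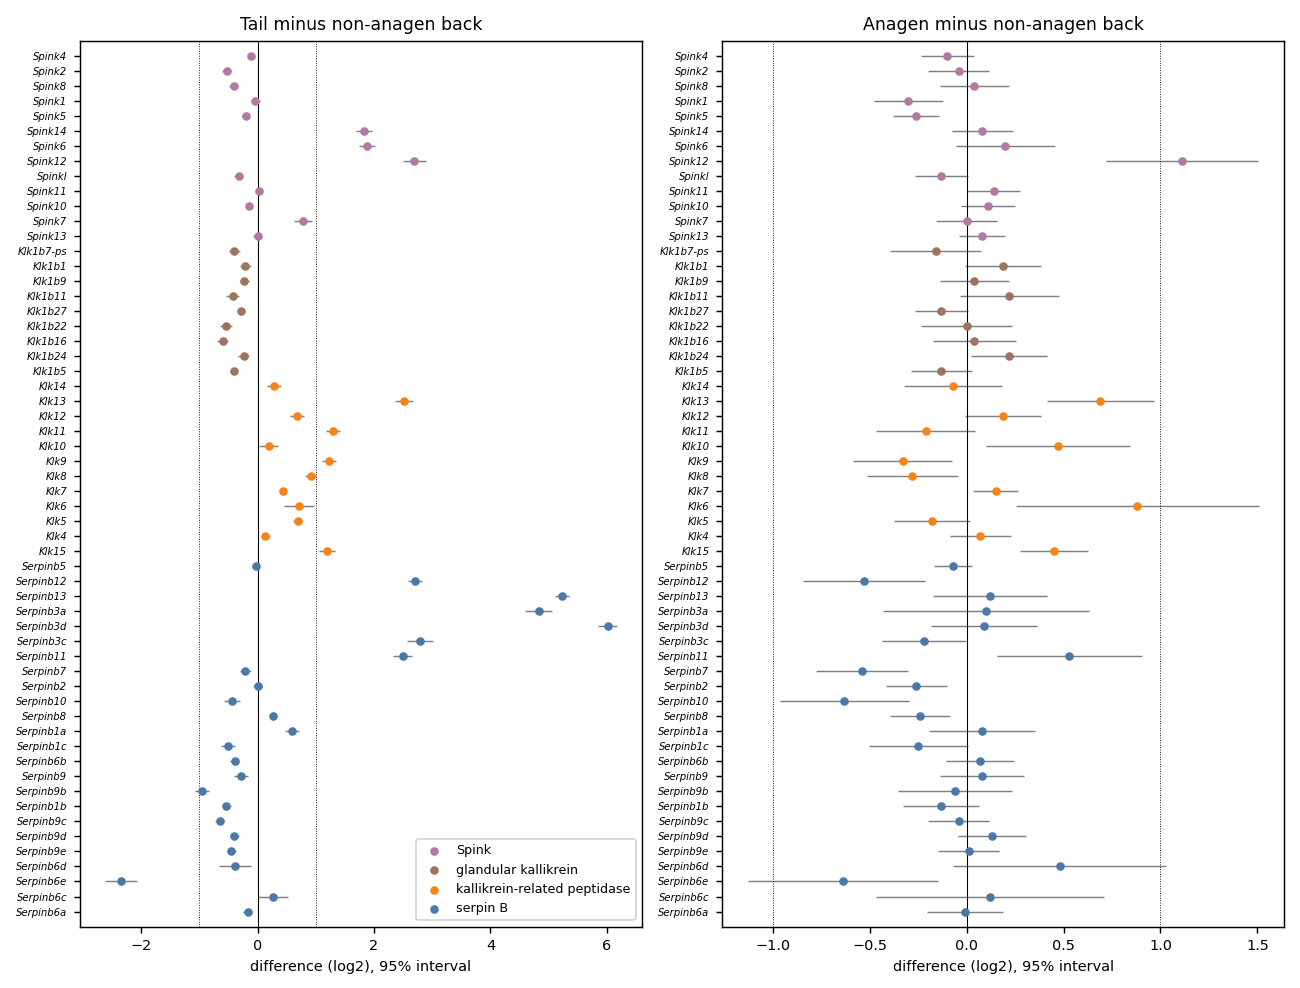
Difference in log2 expression (x axis) for each of the 58 members (y axis, grouped by family and in chromosome order), tail minus non-anagen back at left and anagen minus non-anagen back at right. Points are limma estimates, bars are 95% intervals and dotted lines mark 2-fold; the largest tail differences are Serpinb3d at 6.01 and Serpinb13 at 5.23, and in anagen back only Spink12 was called past 2-fold, at 1.11.

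Of the 11 chromosome 1 serpin B genes, 6 rose at least 2-fold in tail, and they are adjacent in the run, from Serpinb12 to Serpinb11. The median difference of the 11 genes was 2.49. Serpinb3d, a mouse relative of the human squamous cell carcinoma antigens, which inhibit serine and cysteine proteases, had a lowest, median and highest value of 3.54, 4.74 and 5.9 in non-anagen back. These were 3.88, 4.94 and 5.81 in anagen back and 9.12, 10.85 and 11.82 in tail. Every tail array lay above every dorsal array, and the mean rose from 4.77 ± 0.48 (SD, n = 85) to 10.78 ± 0.61 (SD, n = 97). The difference was 6.01 ± 0.08 (SE), or 64.3-fold (limma adjusted p = 4.88e-143).

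Serpinb13, whose human counterpart headpin inhibits cysteine cathepsins, ran 3.87, 4.74 and 5.92 in non-anagen back, 3.91, 4.76 and 6.3 in anagen back and 9.06, 10.02 and 10.53 in tail. Its tail arrays were also all above the dorsal ones, with a difference of 5.23 ± 0.06 (SE; limma adjusted p = 1.7e-153). Serpinb3a ran 2.8, 4.22 and 6.74 in non-anagen back, 3.04, 3.8 and 6.78 in anagen back and 7.5, 9.25 and 10.19 in tail. Its groups did not overlap either, and tail was higher by 4.83 ± 0.12 (SE; limma adjusted p = 4.31e-97). Serpinb12, an inhibitor of trypsin-like proteases, ran 7.03, 8.12 and 9.23 in non-anagen back, 6.01, 7.72 and 8.66 in anagen back and 10.19, 10.8 and 11.4 in tail. It was already well above the lower range of the scale in dorsal skin, and still rose by 2.70 ± 0.06 (SE; limma adjusted p = 1.77e-100) without overlap.

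Serpinb3c spread most of these genes in tail, at 5.36, 7.41 and 10.09, against 3.68, 4.57 and 5.39 in non-anagen back. Of its 97 tail arrays, 94 lay above the highest non-anagen array, and the difference was 2.79 ± 0.11 (SE; limma adjusted p = 4.32e-61). Serpinb11 ran 3.94, 6.36 and 7.37 in non-anagen back, 5.05, 6.62 and 8.41 in anagen back and 7.56, 8.87 and 9.65 in tail. Its tail arrays cleared the non-anagen arrays but overlapped the anagen ones, and the difference from non-anagen back was 2.49 ± 0.08 (SE; limma adjusted p = 1.05e-76). With Klk13, 6 members had tail values wholly above non-anagen back, and 1.42% of all genes did; no member lay wholly below, where 0.478% of genes did.

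**Figure D2:**
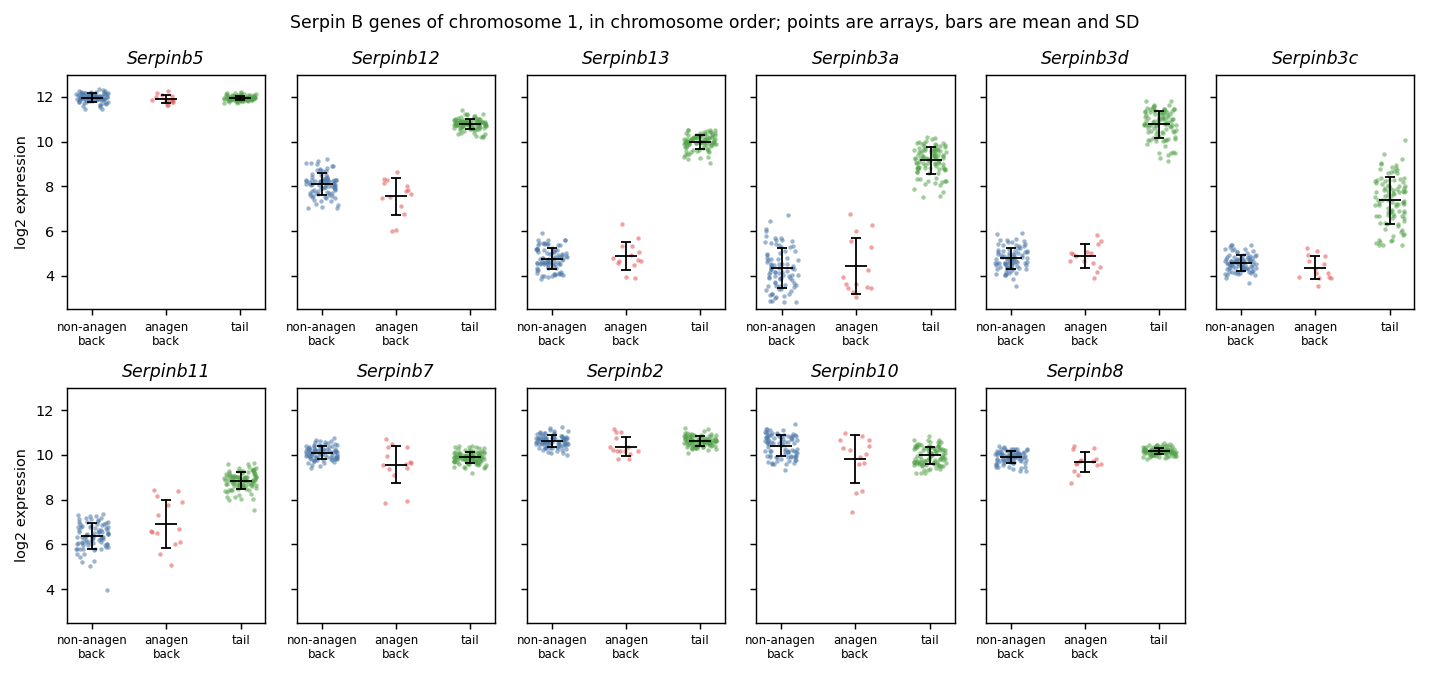
Log2 expression (y axis) of the 11 chromosome 1 serpin B genes in non-anagen back (85 arrays), anagen back (14) and tail (97), 1 panel per gene in chromosome order; points are arrays and bars are mean and SD. Serpinb12 through Serpinb11 sit higher in tail, while Serpinb5, Serpinb7, Serpinb2, Serpinb10 and Serpinb8 overlap between all groups.

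The genes at both ends of the run did not share this difference. Serpinb5, which encodes maspin, a serpin that does not inhibit proteases, was at 11.97 ± 0.18 in non-anagen back and 11.95 ± 0.1 in tail (SD, n = 85 and 97; difference -0.02, 95% interval -0.06 to 0.03, limma adjusted p = 0.473). This depended on the scaling. The Serpinb5 difference was -0.22 with arrays shifted to a common median and -0.15 after a further quantile normalization (limma adjusted p = 2.05e-13 and 1.12e-12). Serpinb2, plasminogen activator inhibitor 2, was at 10.62 in both groups, with a difference of 0.00 that turned to -0.20 when arrays were shifted to a common median and to -0.24 after a further quantile normalization. Serpinb7, whose loss in people causes Nagashima-type palmoplantar keratoderma, was lower in tail with a difference of -0.21 (limma adjusted p = 2.7e-05), and Serpinb10 with -0.44 (limma adjusted p = 1.5e-08). Under the same scalings Serpinb7 had -0.42 and -0.47, and Serpinb10 -0.65 and -0.69. Serpinb8 was higher by 0.27 (limma adjusted p = 4.96e-13), but by 0.06 and 0.01 under these scalings (limma adjusted p = 0.124 and 0.696), so its call was lost. All of these overlapped between tissues.

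On chromosome 13 the serpin B genes moved the other way. Of the 13, 11 were lower in tail at any size and 1 was higher, against 43.4% and 43.7% of all genes. The higher gene was Serpinb1a, by 0.59 (0.34 after a further quantile normalization), and the median difference of the 13 was -0.40. Serpinb6c did not pass (0.27, limma adjusted p = 0.0545). Serpinb1a encodes an inhibitor of neutrophil proteases. Most of the chromosome 13 genes were in the lower part of the scale. Of all genes at or below the median level, 65.8% were lower in tail, with a median of -0.19. Serpinb6e passed 2-fold: it ran 6.05, 8.59 and 9.82 in non-anagen back, 6.06, 7.97 and 8.75 in anagen back and 3.92, 6.25 and 8.24 in tail. Of the tail arrays, 45 lay below the lowest non-anagen array, 78 of 82 mice had the lower value in tail, and the difference was -2.34 ± 0.14 (SE; limma adjusted p = 3.21e-37). Serpinb9b, of the granzyme B inhibitor group, was next, with a difference of -0.95, which was -1.16 with arrays shifted to a common median. The 6 T and NK cell genes were lower in tail with a median difference of -2.09, of which Gzmb, which encodes granzyme B, had -0.28 from a mean of 4.17; their part in these differences was not tested.

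All 12 kallikrein-related peptidases were higher in tail at any size, against 43.7% of all genes. Of all genes above the median level in a group, 65% were higher, with a median of 0.24. Klk10 and Klk4 fell to -0.01 and -0.07 when arrays were shifted to a common median, and Klk10 to -0.05 after a further quantile normalization. With the shift Klk14 was at 0.07 (limma adjusted p = 0.249), so that 9 of the 12 passed. Their median difference was 0.70, and 4 passed 2-fold. Klk13, expressed in stratified epithelia, ran 4.51, 5.72 and 6.42 in non-anagen back, 5.36, 6.23 and 8.16 in anagen back and 6.72, 8.21 and 9.7 in tail. Tail and non-anagen arrays did not overlap, and the difference was 2.51 ± 0.08 (SE; limma adjusted p = 2.37e-78). Klk11 ran 6.49, 7.58 and 8.41 in non-anagen back and 7.86, 8.83 and 9.56 in tail, with 87 of 97 tail arrays above the highest non-anagen array and a difference of 1.29 ± 0.06 (SE). Klk9 rose by 1.23 ± 0.06 (SE) from a mean of 8.3 to 9.53, and by 0.99 after a further quantile normalization. Klk15 rose by 1.19 ± 0.07 (SE) from a mean of 4.82 to 6.01, and by 0.99 with arrays shifted to a common median, so neither of these calls past 2-fold holds under each scaling.

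The proteases best known from desquamation rose by less than 2-fold. Klk5, which activates itself and then Klk7 and Klk14, ran 8.9, 9.95 and 10.48 in non-anagen back and 10.11, 10.58 and 11.06 in tail, a difference of 0.69 (limma adjusted p = 5.21e-38). Klk7, the chymotryptic enzyme of the stratum corneum, ran 10.91, 11.71 and 12.09 and then 11.84, 12.12 and 12.45, a difference of 0.43 (limma adjusted p = 2.89e-37). After a further quantile normalization Klk5 differed by 0.44, and with arrays shifted to a common median Klk7 differed by 0.23. Both overlapped between tissues, with 65 and 55 tail arrays above the highest non-anagen array. Klk8, or neuropsin, differed by 0.91, Klk6 by 0.71 (0.46 after a further quantile normalization) and Klk12 by 0.68, all past the adjusted p threshold. Klk14 differed by 0.28, with its call lost under the shift as given above. Klk6 had the widest spread of the family in non-anagen back, from 6.13 to 10.19. The 9 glandular kallikreins, known mainly from the salivary gland, were between 2.3 and 5.58 in every array, and all 9 were lower in tail at any size with a median difference of -0.40. Of all genes at or below the median level, 65.8% were lower, with a median of -0.19. After a further quantile normalization 5 were lower, the median was -0.14 and Klk1b1 turned to 0.07.

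**Figure D3:**
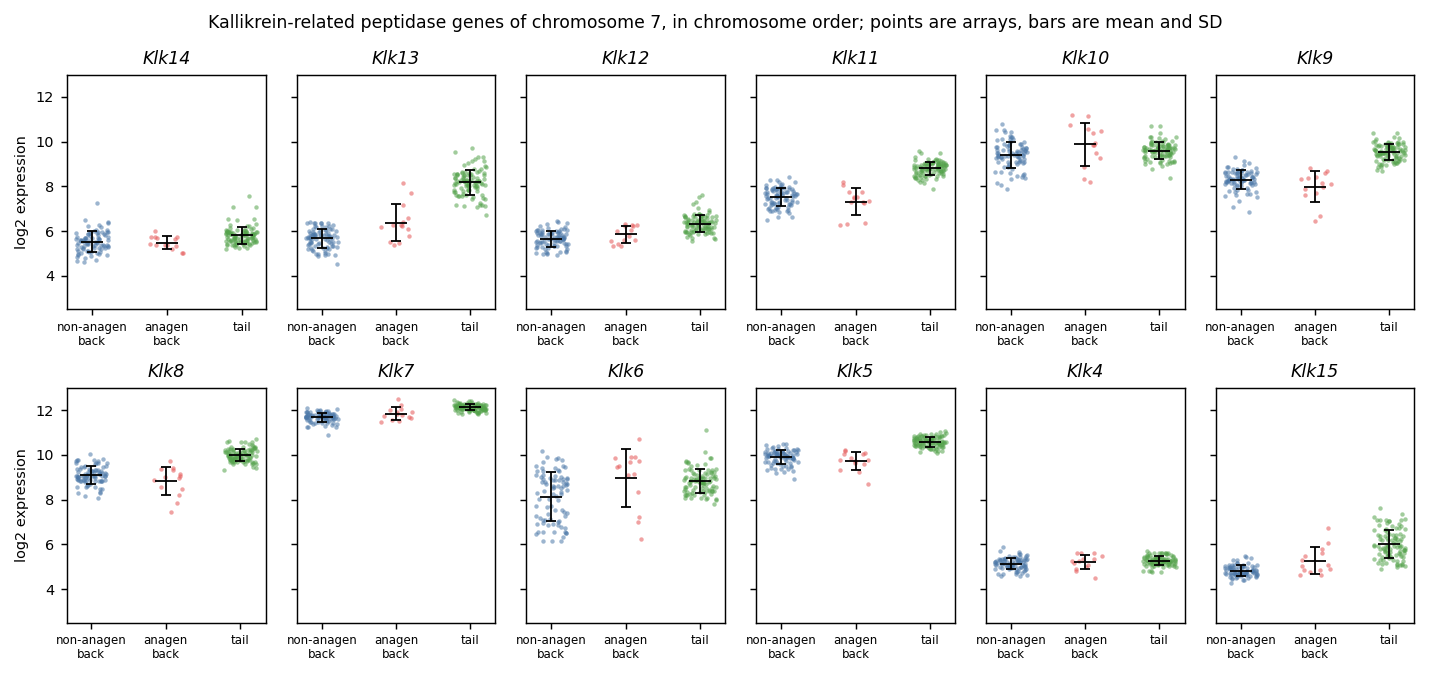
Log2 expression (y axis) of the 12 kallikrein-related peptidase genes in non-anagen back (85 arrays), anagen back (14) and tail (97), 1 panel per gene in chromosome order; points are arrays and bars are mean and SD. Klk13 separates tail from non-anagen back, and Klk5, Klk7, Klk8, Klk9 and Klk11 are shifted up in tail with overlap.

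Among the Kazal-type inhibitors, 3 of 13 rose at least 2-fold in tail. Spink12 ran 3.5, 4.23 and 5.14 in non-anagen back and 5.13, 7.06 and 8.32 in tail, so that 96 of 97 tail arrays lay above the highest non-anagen array. Its difference was 2.69 ± 0.10 (SE; limma adjusted p = 1.8e-65). Spink6, an inhibitor of kallikreins in the epidermis, ran 3.9, 4.82 and 5.69 and then 5.39, 6.72 and 8.09, also with 96 tail arrays above, and a difference of 1.88 ± 0.07 (SE; limma adjusted p = 5.45e-68). Spink14 rose by 1.82 ± 0.07 (SE; limma adjusted p = 4.85e-64) from a mean of 3.67 to 5.5, and Spink7 by 0.78. Spink5 went the other way by a small amount: it ran 11.24, 11.66 and 12.04 in non-anagen back and 11.13, 11.46 and 11.72 in tail, with a difference of -0.20 (limma adjusted p = 1.6e-12), lower in 67 of 82 mice. This was -0.41 with arrays shifted to a common median and -0.35 after a further quantile normalization. The other 8 Spink genes lay between -0.53 (Spink2) and 0.02 (Spink11). The Spink median was -0.04, which became 0.10 after a further quantile normalization.

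The genes around these families were read from lists of proteases, substrates and inhibitors. Of 7 measured proteases that act with epidermal kallikreins, 5 were higher and 2 lower in tail at any size, where 43.7% and 43.4% of all genes were, and none passed 2-fold. Casp14, which processes filaggrin, differed by 0.82, the kallikrein-activating network member Prss8 by 0.72 and Ctsd by 0.47. Of 3 measured kallikrein substrates, the corneodesmosome genes Dsg1b and Cdsn differed by 1.19 and 0.67 and Camp by -0.18. Of 8 other secreted inhibitors, 5 were higher and 2 lower at any size, the lower being Cst6 at -0.31 and A2ml1 at -0.26. Past 2-fold were 2, where 3.94% of all genes were higher: Wfdc12 by 3.00 and Serpina12, vaspin, which inhibits Klk7, by 1.02. Spint1 differed by 0.86. The Serpina12 value lies close to the 2-fold limit, and values of list genes are given on the deposited scaling only. Of 10 proteases that serpin B proteins inhibit, 3 were higher and 5 lower at any size. Plau, the urokinase blocked by Serpinb2, was the 1 past 2-fold, at 1.26, with Ctsl at 0.41 and Elane at -0.39.

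Against anagen dorsal skin, tail again had 13 members higher and 1 lower at 2-fold, where 3.33% and 1.69% of all genes were called. At any size 24 were higher and 23 lower, against 38.8% and 34.9% of all genes. These comparisons share the tail arrays. Serpinb3d differed by 5.92, Serpinb13 by 5.12, Serpinb3a by 4.73, Serpinb12 by 3.24 and Serpinb3c by 3.04, and these 5 had no overlap between groups, as 1.6% of all genes did. Klk8 differed by 1.19 here, falling to 0.94 after a further quantile normalization, and Klk15 by 0.76. Serpinb6e was lower with a difference of -1.70.

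Anagen changed few members of dorsal skin. Spink12 was the 1 member called at 2-fold (0.68% of all genes higher), and 0 members were called lower, where 0.00531% of genes were. No member's anagen values lay wholly above or below the others, and 0.0106% of all genes lay wholly above. At any size 3 were higher (4.11% of all genes) and 7 lower (3.59%). Spink12 ran 3.5, 4.23 and 5.14 outside anagen and 3.92, 4.65 and 9.67 in anagen, so that the groups overlapped and some anagen arrays were far higher; the difference was 1.11 ± 0.20 (SE; limma adjusted p = 2.73e-05). Klk13 was higher by 0.69 and Klk15 by 0.45. The lower members were Serpinb10 at -0.63, Serpinb7 at -0.54, Serpinb12 at -0.53, Spink1 at -0.30, Serpinb2 and Spink5 at -0.26 and Serpinb8 at -0.24, so that 5 of 11 chromosome 1 serpin B genes were lower. Of the 6 upper-layer epidermal genes, 4 were also lower in anagen, with a median difference of -0.25; their part in these values was not tested.

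The 14 anagen arrays spread widely in the inner root sheath mean, from 5.75 to 11.55, and several members followed it. The inner root sheath is the layer around the growing hair. With it 4 members rose and 8 fell, where 4.16% and 4.18% of all genes did (adjusted p over all genes from 100000 permutations, after removal of sex). Serpinb11 rose most closely (r = 0.912, rho = 0.881, permutation p = 3e-05 and 6e-05, adjusted p = 0.00203) and had r = 0.892 without the 2 arrays farthest from the median. Serpinb2 fell (r = -0.909, rho = -0.895, permutation p = 2e-05 and 3e-05, adjusted p = 0.00159; r = -0.867 without 2 arrays). Serpinb8 had r = -0.893, Klk9 r = -0.850 and Serpinb7 r = -0.834 with rho of -0.868, -0.930 and -0.837, and r of -0.861, -0.846 and -0.802 without 2 arrays (permutation adjusted p = 0.00159, 0.00159 and 0.00309). Klk6 (r = 0.756), Klk10 (r = 0.728) and Spink12 (r = 0.706) rose and Klk5 (r = -0.766), Serpinb10 (r = -0.763), Klk11 (r = -0.753) and Spink5 (r = -0.685) fell. Without 2 arrays these were 0.631, 0.666 and 0.636, and -0.709, -0.718, -0.645 and -0.699, and over the 12 arrays left none passed (adjusted permutation p from 0.109 to 0.217).

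Over the 97 tail arrays the sheath mean ran from 5.69 to 10.1 with a median of 8.67. With it 10 members rose and 4 fell, where 13.2% and 11.1% of all genes did. The counts leave out members whose values split into separate sets, whereas the shares cover all genes. Of the members left out, Klk14 passed upward and Serpinb9c and Spinkl downward (adjusted permutation p = 0.00262, 0.00904 and 0.0252). Klk15 followed the sheath mean most closely (r = 0.790, rho = 0.816, both permutation p = 1e-05, the smallest that the permutations can give, adjusted p = 0.000236; r = 0.775 without 2 arrays). Spink12 had r = 0.686 and rho = 0.645 and Spink6 r = 0.463 and rho = 0.498, with the same permutation p-values and r of 0.639 and 0.469 without 2 arrays. Klk13 had r = 0.322, which was 0.217 (adjusted permutation p = 0.118) without 2 arrays, and Klk10 had r = 0.284, which was 0.214 (adjusted permutation p = 0.0787) with arrays shifted to a common median. Klk6, Serpinb9, Serpinb11, Serpinb6d and Spink7 had r from 0.258 to 0.282 and did not pass without 2 arrays. There Serpinb11 had r = 0.124, while Klk6, Serpinb9, Serpinb6d and Spink7 had 0.254, 0.255, 0.249 and 0.247. The falling members in the count were Klk1b9 (r = -0.361), Klk1b22 (r = -0.340), Serpinb6e (r = -0.306) and Klk1b27 (r = -0.303, and -0.240 with an adjusted permutation p = 0.0791 without 2 arrays). Tail arrays with more sheath transcript thus had more Klk15, Spink12 and Spink6.

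**Figure D4:**
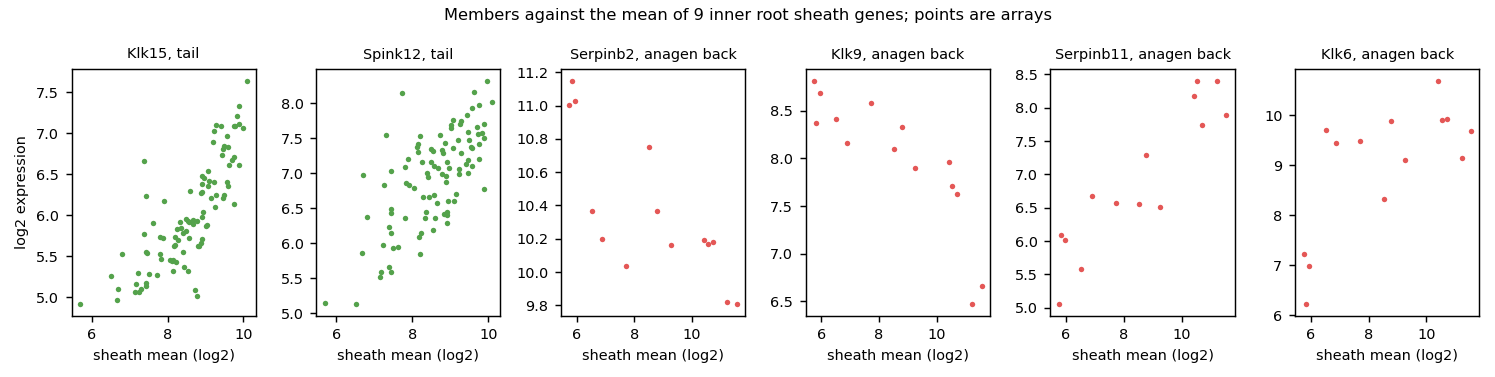
Log2 expression of 6 members (y axis) against the mean log2 expression of 9 inner root sheath genes (x axis), for tail arrays (Klk15 and Spink12, 97 arrays) and anagen dorsal arrays (Serpinb2, Klk9, Serpinb11 and Klk6, 14 arrays); points are arrays, before removal of sex and batch. Klk15, Spink12 and Serpinb11 rise along the axis, Serpinb2 and Klk9 fall, and the low Klk6 values are at the low end of the sheath mean.

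Sex differences were largest in the Serpinb6 group, relatives of an intracellular inhibitor of granule proteases. In non-anagen back 7 members were higher in females and 3 lower, where 6.19% and 6.11% of all genes were called. Serpinb6c ran 4.3, 6.48 and 8.81 in females and 4.65, 8.1 and 9.58 in males. Its sexes overlapped over most of their range, and the female mean was lower with a difference of -1.48 ± 0.23 (SE; limma adjusted p = 8.77e-07). Serpinb6d was lower in females with -1.24 ± 0.21 (SE; limma adjusted p = 1.21e-05) and Serpinb6a with -0.33. Serpinb6e was higher in females, by 0.63 ± 0.18 (SE; limma adjusted p = 0.0141), and Serpinb11 by 0.34. The other five higher members (Serpinb8, Serpinb2, Serpinb7, Klk7 and Spink5) differed by 0.11 to 0.20. In batch 1 alone, Serpinb11, Serpinb2, Serpinb7 and Spink5 did not pass, with adjusted limma p of 0.141, 0.0757, 0.0746 and 0.0518. The mean of 4 sebaceous gland genes had a median of 9.75 in female and 10.32 in male back, and 9.79 and 9.76 in tail. The 4 genes did not move together. Female minus male, Awat2, Mc5r, Scd3 and Elovl3 had 0.24, -0.38, -0.62 and -0.99 in back. In tail they had 0.84, -0.12, -0.84 and -0.39. Their part in the differences of the members was not tested.

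In tail, 2 members were higher in females (1.64% of all genes) and 0 lower (1.2%): Serpinb6e by 0.83 ± 0.22 (SE; limma adjusted p = 0.0185) and Serpinb3c by 0.66 ± 0.20 (SE; limma adjusted p = 0.0485, and 0.0513 in batch 4 alone). Serpinb6c had a female mean of 7.36 and a male mean of 7.49 there, and Serpinb6d 6.31 and 6.04. The difference between the sex effects, tail minus non-anagen back, was tested directly and passed for 8 members, 4 upward and 4 downward, where 4.46% and 4.63% of all genes did. It was 1.49 ± 0.25 (SE; limma adjusted p = 1.09e-05) for Serpinb6d and 1.34 ± 0.25 (SE; limma adjusted p = 4.01e-05) for Serpinb6c. For Serpinb6e it was 0.21 ± 0.29 (SE; limma adjusted p = 0.734), which did not pass.

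The share of members whose level in tail followed that in the back of the same mouse was close to the share of all genes. Over the 82 mice with both tissues, 5 members had a positive correlation, where 8.92% of all genes did, and 0 a negative one (0.0744%). Serpinb10 had r = 0.687 and rho = 0.691 and Serpinb3a r = 0.552 and rho = 0.603, all with permutation p = 1e-05, the smallest possible, and adjusted p = 0.000418. Without the 2 mice farthest from the median, r was 0.706 and 0.528. Serpinb3c had r = 0.468, Serpinb6e r = 0.349 and Spink1 r = 0.333, with rho of 0.473, 0.374 and 0.349, r of 0.457, 0.367 and 0.326 without 2 mice and adjusted permutation p of 0.000708, 0.0215 and 0.0293. In the large batches alone Serpinb6e and Spink1 did not pass (adjusted permutation p = 0.052 and 0.098), and Spink1 did not with arrays shifted to a common median (0.0797). The back values of Serpinb10 were split into a lower and a higher set, which narrows their range. Within the sets r was 0.122 (n = 40) and 0.150 (n = 42), with permutation p = 0.454 and 0.34. For Serpinb3a the sets gave 0.066 (n = 45) and 0.315 (n = 37; permutation p = 0.667 and 0.0564). For both genes the mice with higher back values also had the higher tail values on average, and within the sets no r passed. Whether array probes lie over sites that differ between Mus spretus and FVB/N could not be checked. These correlations are thus of array signal, and their cause was not tested.

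**Figure D5:**
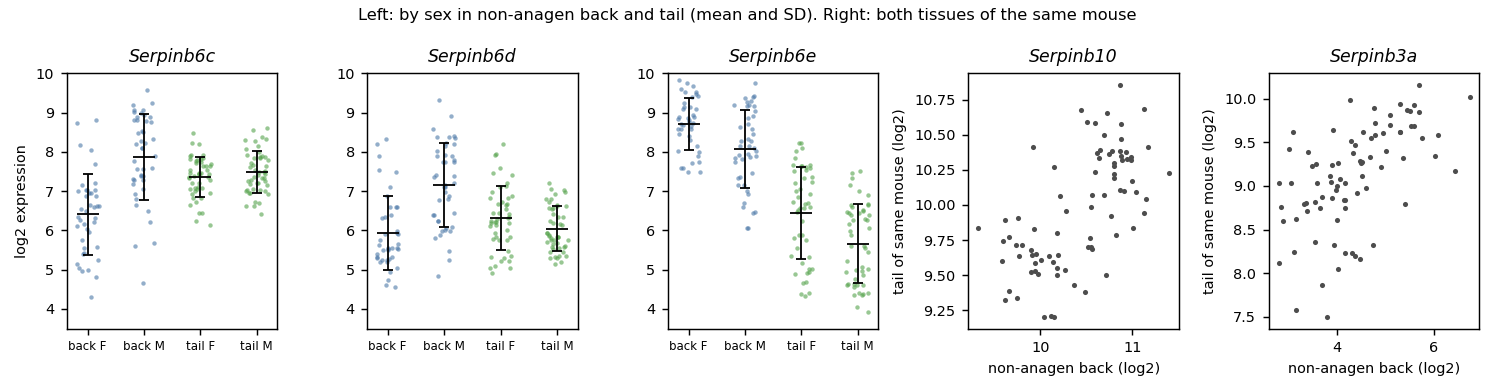
Left, log2 expression (y axis) of Serpinb6c, Serpinb6d and Serpinb6e in females (F) and males (M) of non-anagen back (41 and 44 arrays) and tail (48 and 49); points are arrays and bars are mean and SD. Right, tail (y axis) against non-anagen back (x axis) of the same mouse for Serpinb10 and Serpinb3a in 82 mice, before removal of sex and batch; Serpinb6c and Serpinb6d are lower in female than in male back, and at right higher back values go with higher tail values.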

How the data were processed

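RNA of dorsal and tail skin (1 ug per array, biotin label) was hybridised to mouse gene arrays. The authors deposited log2 expression values, and RMA (background correction, quantile normalization and probe summary) is named in the submitters' processing notes; its version is not given in the sources used here. The table held 35556 probe sets, of which 21218 named a single gene, 1881 several and 12457 none. Single-gene probe sets were used, with the highest-mean one for the 1386 genes that had several. All 58 members were named by the platform annotation and matched to RefSeq. No array was left out, no low values were filtered, and no arrays were identical. Array medians lay between 5.67 and 6.03. Precision depends on the number of arrays.

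For group differences, linear models on the deposited log2 values were run in limma 3.58.1 (R 4.3.3), with sex as a covariate between tissues, sex and batch for anagen, and batch for sex, and p-values were adjusted over all 18820 genes by Benjamini-Hochberg. The fit was tested on simulated data. Correlations were taken after removal of sex and batch, two-sided, with 100000 permutations, adjusted over all genes (Python 3.11.15, numpy 2.4.6, numba 0.67.0). Members whose values split into sets at least 4 pooled SDs apart, each of at least 6 mice, had no pooled r: 4 for the same-mouse correlation (Serpinb9c, Serpinb9e, Spink8 and Spinkl), those and Klk14 for tail sheath, and Serpinb3c and Serpinb5 for anagen sheath. These members are outside the counts of correlated members, while the shares of all genes leave out none. Mouse numbers in the labels pair the tissues. The main limma fits between tissues, and of the sex interaction, treated arrays of the same mouse as independent. Pairing by mouse was an alternative. Over 82 mice, a tail's deviations from the tail mean correlated with its own back at a median of 0.166 and with other backs at -0.001, and 23 tails correlated best with their own back.

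The members and lists were chosen with earlier results of these data known. Described in full were members called at 2-fold in tail or anagen, up to 5 of those called for sex, the interaction and each correlation, and 13 members always (Klk5, Klk6, Klk7, Klk8, Klk14, Spink5, Serpinb2, Serpinb3a, Serpinb5, Serpinb7, Serpinb8, Serpinb12, Serpinb13), with the 3 largest differences per pathway list. Marker lists covered epidermal layers, hair follicle, sebaceous gland, stressed keratinocytes, immune cells, muscle and fat. Alternatives were array scaling, probe set choice, a level filter, the large batches alone, no sex term, the pairing by mouse, size limits and leaving out 2 arrays.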

Additional observations from a re-analysis of the deposited data

Results flagged for a closer look

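The sex difference (female minus male) differed between tail and non-anagen dorsal skin in 8 members, by the interaction test in limma. Of these, 4 were upward and 4 downward, where 4.46% and 4.63% of all genes passed. The value, tail minus back, was 1.49 for Serpinb6d, 1.34 for Serpinb6c, 0.69 for Serpinb3c and 0.29 for Serpinb6a. It was -0.23 for Serpinb2, -0.19 for Serpinb8, -0.15 for Klk7 and -0.14 for Spink5. Serpinb6a, Serpinb6c and Serpinb6d were lower in females in the back. Serpinb3c was higher in females in the tail, and Serpinb2, Serpinb8, Klk7 and Spink5 were higher in females in the back.
In the large batches alone the interaction of Klk7 and Serpinb2 had adjusted limma p of 0.0603 and 0.0679, and with pairing by mouse that of Serpinb8 had 0.0569.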

How the results depend on the processing

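No difference called at 2-fold, and no called sex difference, changed direction under the alternatives tried. Requiring only the adjusted p gave 24 members higher and 28 lower in tail than in non-anagen back, where 43.7% and 43.4% of all genes passed. It gave 24 and 23 against anagen back (38.8% and 34.9%), and 3 and 7 in anagen (4.11% and 3.59%). With arrays shifted to a common median, the median tail difference of all genes was -0.21, the all-gene calls at 2-fold went from 741 higher and 381 lower to 489 and 620 (537 and 524 after a further quantile normalization), and 2 members were lower against non-anagen and 3 against anagen back. That shift also gave 4 positive and 8 negative tail sheath relations, where 7.13% and 30.4% of all genes passed. The large batches alone gave 3 members higher in female back, 1 in female tail, 2 downward interactions and 3 same-mouse correlations. Of all 18820 genes, 774, 294 and 595 passed in the first 3 of these, and 7.45% had a positive same-mouse correlation. A size limit of 0.5 gave 1 member higher in female back and 0 downward interactions. Without the 2 farthest arrays, 4 positive tail sheath relations passed (11% of all genes), and 1 positive and 4 negative in anagen (1.82% and 1.17%). The cause was not tested. With the replicate block (pairing by mouse) 13 members were higher and 1 lower against non-anagen back, and 14 and 1 against anagen back. There 5 upward and 4 downward interactions passed. Of all 18820 genes these were 739 and 381, 626 and 329, and 824 and 932. The interaction of Serpinb8 was -0.19 with an adjusted limma p of 0.0569. In the split by back level, chosen after seeing the data, Serpinb6e had r = -0.073 among 25 mice with lower values and 0.335 among the other 57 (permutation p = 0.728 and 0.0108), Serpinb3c 0.297 and 0.088, and Spink1 0.055 and 0.056.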

Other observations

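Probe sets that name several genes were kept out of the report. Of these, 6 hold kallikrein or serpin B symbols, including Klk1b8, Klk1b21, Klk1b26, Serpinb9f and Serpinb9g, and their group means were between 3.28 and 5.25.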
